A study of Mus musculus with 18 samples.

Results

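The later sham kidneys of a mouse time course of unilateral ischemia and reperfusion (UIR) were compared with each other: 3 libraries of day 3 and 3 libraries of week 3 after a sham operation, 6 of the 18 libraries in all. All animals were C57BL/6 mice in postnatal week 11, and the material was kidney tissue with 3 biological replicates per group. In the UIR arm the pedicle of the right kidney was clamped for 45 min and the left kidney was kept, and mice of both arms were killed 1, 3 or 21 days after surgery. The labels name neither the kidney that was sequenced nor the sex of the mice, and they do not describe what the sham operation consisted of. Expression was measured as FPKM, the number of fragments relative to transcript length and library depth, and 14716 of the 20825 genes in the table entered the test because they reached 1 FPKM in at least 3 of the 18 libraries.

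Sham-operated mice undergo anesthesia and surgery without the clamp, so their kidneys serve as the reference for injury at each time. Most RNA in a whole kidney comes from the proximal tubule, the segment that reabsorbs glucose, amino acids, phosphate and filtered protein and that burns fatty acids for energy. The loop of Henle, the distal tubule, the collecting duct, the glomeruli and the vessels add smaller shares. Kidney RNA also carries the circadian clock, fasting signals and sex hormone signals, each of which can differ between mice of 1 group.

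The defining transcripts of kidney were present in all 6 libraries. Slc34a1, the sodium-phosphate cotransporter of the proximal tubule, ranged from 2677 to 3252 FPKM. Umod, which encodes the uromodulin of the thick ascending limb, ranged from 552 to 932 FPKM. Xist, the RNA of X inactivation, was at most 0.10 FPKM, whereas the Y-linked Ddx3y lay between 9.44 and 12.97 FPKM. The adrenal steroid enzyme genes Cyp11b1, Cyp21a1, Cyp11a1 and Cyp17a1, the muscle genes Ckm and Myh1 and the fat genes Adipoq and Lep stayed at or under 0.14 FPKM. Other members of these lists were higher. In the 6 libraries the adrenal list summed to 3.48 to 5.01 FPKM, the muscle list to 0.96 to 2.64 FPKM and the fat list to 42.8 to 102 FPKM. The fat list includes Car3, at 8.60 to 78.6 FPKM. The injury markers Havcr1 and Lcn2 were low. Havcr1, the kidney injury molecule of the tubule, was at most 5.54 FPKM in the 6 libraries against means of 30.9 in sham day 1 and 1176 in clamped day 3 kidneys. Lcn2, which encodes the injury marker NGAL, was at most 4.25 FPKM against 169 and 236 FPKM in those groups. Other injury and repair genes were higher: the list of 28 summed to 1038 to 1458 FPKM in the 6 libraries, and its member Krt7 read 42.8 to 86.7 FPKM.

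The 6 libraries held 12000 to 12259 genes at 1 FPKM or more, and their FPKM sums ran from 488280 to 549490. Read counts were not used here; the size of the smallest steps among low values gave an estimate of 15800000 to 19600000 fragments per library, under the assumption that each transcript is shortened by 200 bases. Across genes, Pearson's r of log2(FPKM + 1) was 0.984 to 0.991 among the day 3 libraries, 0.990 to 0.993 among the week 3 libraries and 0.982 to 0.990 between both sets. Pairs of a later sham library and a sham day 1 library gave 0.946 to 0.964. The median absolute difference of a gene was 0.156 on the log2 scale between a day 3 and a week 3 library, 0.157 between a pair of day 3 libraries and 0.115 between a pair of week 3 libraries. Sham day 1 stood farther from both, at 0.303 from day 3 and 0.284 from week 3.

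One library stood apart within this set. The second day 3 replicate was the farthest of its group from the group median in 45.1% of genes, and the other 2 day 3 replicates took 23.5% and 31.4%. It was the lowest of all 6 in 26.4% of genes, where the others took 10.4% to 18.3%, and the highest in 23.8%. The second week 3 replicate was the highest in more, 26.7% of genes, and the remaining 4 libraries took 9.19% to 14.3%. The median within-group SD of log2 values was 0.131 at day 3 and 0.109 at week 3, and the day 3 value was 0.084 without the second replicate. Without that library, 2 values stand against 3, and 17.7% of all genes were higher and 14.3% lower at week 3 without overlap. Where leaving it out moved the count of a list described below by over 1.5 times, the count without it is given too.

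Among the most abundant transcripts, ranks 1 to 3 were the same in each of the 6 libraries. Lower ranks moved, with Cyp4b1 between 6 and 18. Kap, the androgen-controlled kidney protein of the proximal tubule, led in each of the 6 libraries at 41026 ± 6258 FPKM (SD, n = 6) and made up 8.05% of the summed FPKM. Its day 3 libraries held 43388, 51258 and 42766 FPKM and its week 3 libraries 36809, 33366 and 38569 FPKM, so the values of the 2 times did not overlap. The log2 change of Kap was -0.34 ± 0.44 (SE), with a limma adjusted p of 0.78. That error is shared with the clamped kidneys, whereas the pooled within-group SD of the 6 sham libraries was 0.13. Fitted on the 6 libraries alone, Kap had an adjusted p of 0.78 as well.

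Gpx3, the plasma glutathione peroxidase secreted by the proximal tubule, was second at 23284 ± 1797 FPKM with means of 22988 at day 3 and 23579 at week 3. The ferritin chains Fth1 (6261 FPKM) and Ftl1 (3687 FPKM), which store iron, took ranks 3 and 5, and Fxyd2, the gamma subunit of the sodium pump, took rank 4 at 4055 FPKM. Ass1, the arginine-making argininosuccinate synthase, followed at 3544 FPKM. Next came the glycolytic Gapdh at 2966 FPKM, and Slc34a1 took rank 9 at 2949 FPKM. The cytochrome P450 gene Cyp4b1 closed the first 10 at 2846 FPKM. Together the first 10 genes held 18.4% of the summed FPKM, and 7 of them were among the first 10 in every library. The next 10 were the elongation factor Eef1a1 (2713 FPKM), the kallikrein Klk1 (2581), the aminoacylase Acy3 (2558), the inositol oxygenase Miox (2023), the fatty acid transporter Slc27a2 (1839), the selenoprotein P gene Sepp1 (1790), the gene model Gm20594 (1673), the P450 gene Cyp2e1 (1641), the glutathione peroxidase Gpx1 (1619) and the peroxiredoxin Prdx5 (1516).

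**Figure D1:**
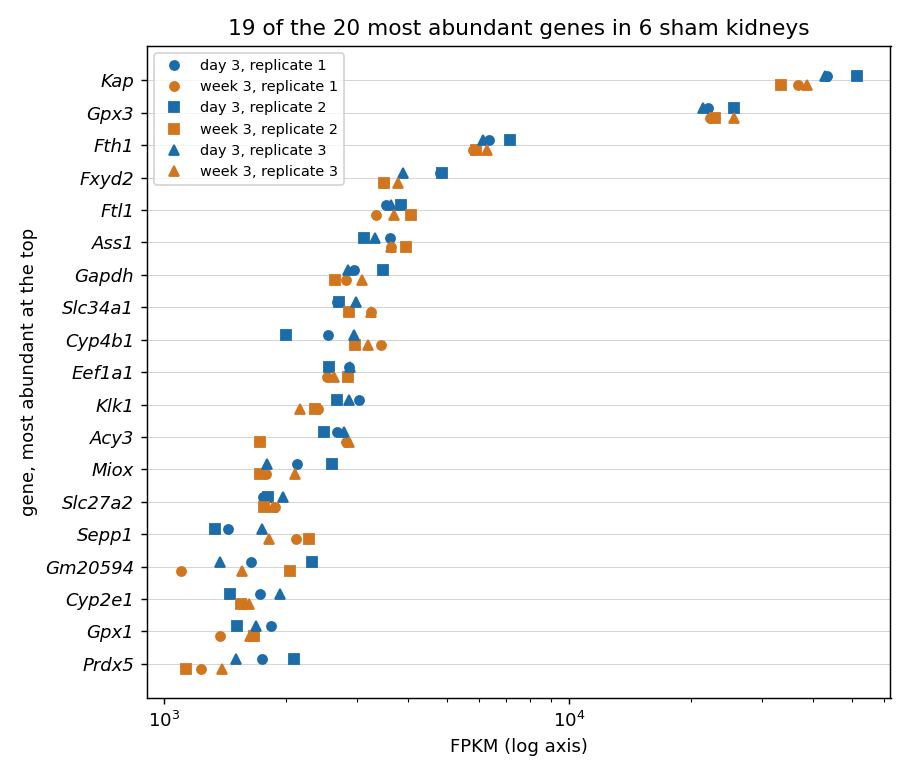
FPKM on a log axis of 19 of the 20 genes with the highest mean over the 6 sham libraries, 1 point per library, blue for day 3 and orange for week 3, with the replicate number by marker. Kap lies at 33366 FPKM or more in each library, and the points of 7 genes, among them Kap, Fxyd2 and Sepp1, do not overlap between the times.

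The first 100 genes held 35.3% of the summed FPKM, and 76 genes were among the first 100 in every one of the 6 libraries. Of the 100 most abundant genes of the 6 libraries, 76 were also among the first 100 of sham day 1, 46 of clamped day 3 and 33 of clamped week 3. Among the first 20 genes, 6 others than Kap did not overlap between times. Klk1 read 3022, 2679 and 2868 FPKM at day 3 and 2393, 2357 and 2166 FPKM at week 3. Sepp1, whose product carries selenium in plasma, read 1440, 1335 and 1749 FPKM at day 3 and 2115, 2283 and 1816 FPKM at week 3. Fxyd2 and Prdx5 were lower at week 3, Fxyd2 from 4810, 4867 and 3890 to 3483, 3499 and 3782 FPKM and Prdx5 from 1744, 2089 and 1508 to 1232, 1131 and 1395 FPKM. Cyp4b1 was higher at week 3, from 2539, 1999 and 2945 to 3442, 2963 and 3187 FPKM, and Ass1 narrowly so, from 3609, 3120 and 3320 to 3629, 3949 and 3637 FPKM. None of the 20 passed the threshold in limma, and 2 stood at an unadjusted p under 0.05, Sepp1 (adjusted p = 0.20) and Prdx5 (adjusted p = 0.084).

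Between day 3 and week 3 few genes passed the test. At a Benjamini-Hochberg adjusted p under 0.05 in limma, fitted on all 18 libraries, 5 of 14716 genes passed, which is 0.034% of those tested. Cyp4a14, Krt7 and Snord34 were lower at week 3 (0.0204%) and Usp6nl and Fchsd1 were higher (0.0136%). The median log2 change of all genes was 0.015. The 95% confidence interval of the change lay inside a factor of 1.5 in either direction for 78.9% of genes and inside 1 log2 unit for 95.7%, while 64 genes had a fitted log2 change of 1 or more in size. Both shares include genes that passed the filter through other groups, since 12220 genes reached 1 FPKM in at least 3 of the 6 sham libraries. Genes near 0 can hardly show a large change on log2(FPKM + 1). Many genes lay just above the threshold: the sixth lowest adjusted p was 0.068, 82 genes had an adjusted p from 0.05 to 0.08, and 348 genes were under 0.1. At an unadjusted p under 0.05 there were 2284 genes (15.5%), 1263 higher (8.58%) and 1021 lower (6.94%). Scaled to TPM, the split was 2353 higher and 532 lower. The 3 values of each time did not overlap for 3245 genes (22.1%), higher at week 3 in 11.9% and lower in 10.2% of genes.

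Without the first or the second day 3 replicate no gene passed in limma, although 1950 and 1456 genes stood at an unadjusted p under 0.05, and without the third 419 genes passed. Without each week 3 replicate in turn 2, 1 and 1 genes passed. When limma estimated a weight for each library, giving the second day 3 replicate the lowest of the 6 (0.402), 1756 genes passed.

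**Figure D2:**
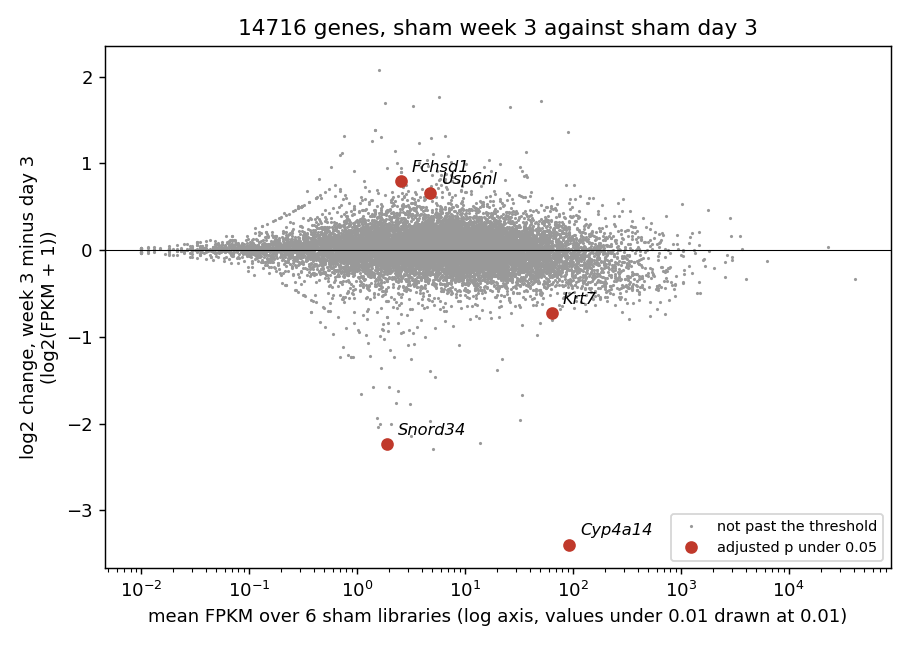
Each point is 1 of the 14716 genes tested, at its mean FPKM over the 6 sham libraries (log axis) and its log2 change from day 3 to week 3 on log2(FPKM + 1). The 5 genes with an adjusted p under 0.05 are in red, and Cyp4a14 has the largest fall at -3.39.

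Cyp4a14 (Entrez 13119) encodes a cytochrome P450 that hydroxylates fatty acids and is a textbook target of the fasting receptor PPAR alpha. Its day 3 libraries held 176, 153 and 173 FPKM and its week 3 libraries 5.58, 21.4 and 26.7 FPKM, so that each week 3 value lay far under each day 3 value. The mean fell from 167 ± 12.5 (SD, n = 3) to 17.9 ± 11.0 FPKM, a ratio of 9.34, and the log2 change was -3.39 ± 0.45 with a limma adjusted p of 0.020. In sham day 1 kidneys the gene stood at 713, 922 and 1132 FPKM. In clamped kidneys it was already at 0.88 ± 0.39 FPKM on day 3 and at 0.50 ± 0.22 FPKM in week 3.

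Its neighbours in the same list of PPAR alpha and fasting genes did not follow it past the threshold: of 21 members tested Cyp4a14 alone passed, 3 members were lower and 1 was higher without overlap (10.2% and 11.9% of all genes), and the median log2 change was 0.0. Leaving out the second day 3 replicate gave 4 lower and 2 higher (14.3% and 17.7% of all genes). Cyp4a10, a close relative of Cyp4a14 with similar sequence between which the authors' counting could divide fragments, read 225, 268 and 233 FPKM at day 3 and 108, 206 and 204 FPKM at week 3 (adjusted p = 0.63, limma). Pdk4, the kinase that shuts off pyruvate oxidation in fasting, was at 241 FPKM in sham day 1 and at 4.08 to 8.13 FPKM by day 3. Its day 3 and week 3 libraries overlapped.

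Krt7 (Entrez 110310) encodes keratin 7, an intermediate filament protein of collecting duct and urothelium that was placed in the list of tubular injury and repair genes. Its day 3 libraries held 86.7, 84.7 and 70.4 FPKM and its week 3 libraries 42.8, 50.7 and 51.0 FPKM. The log2 change was -0.73 ± 0.11 with a limma adjusted p of 0.021, and sham day 1 kidneys held 115 ± 8.56 FPKM. It was the single called member among 28 tested genes of that list, whose median log2 change was -0.10 with 2 members higher and 2 lower without overlap, under the 11.9% and 10.2% of all genes. Leaving out the second day 3 replicate gave 4 higher and 3 lower (17.7% and 14.3% of all genes), and the median was 0.00024. Krt18, a keratin of simple epithelia, read 13.95, 11.2 and 9.69 FPKM at day 3 and 7.46, 9.98 and 7.45 FPKM at week 3, which overlapped.

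Usp6nl (Entrez 98910), a GTPase-activating protein for Rab5 in endocytosis, and Fchsd1 (Entrez 319262), an F-BAR domain protein, were the 2 genes that rose. Both lie under the mean of 5 FPKM required for a named change and were chosen after their values were seen. Usp6nl read 3.95, 2.83 and 3.68 FPKM at day 3 and 6.61, 5.79 and 5.76 FPKM at week 3, a log2 change of 0.66 ± 0.10 with a limma adjusted p of 0.021. Fchsd1 read 1.24, 1.81 and 1.71 FPKM at day 3 and 2.82, 4.56 and 3.20 FPKM at week 3, a log2 change of 0.80 ± 0.13 with a limma adjusted p of 0.037. For both genes the week 3 level was near that of sham day 1, where Usp6nl averaged 5.71 and Fchsd1 3.80 FPKM.

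The last of the 5, Snord34 (Entrez 27210), is a box C/D small nucleolar RNA, a class that guides methylation of ribosomal RNA. It was also chosen after its values were seen. It read 4.26, 4.48 and 2.59 FPKM at day 3 and was listed at 0 in all 3 week 3 libraries (limma adjusted p = 0.035), so no fold is given. It is 70 bases long and lies inside the gene Rpl13a on the same strand, so fragments of that host transcript and of Snord34 may not be separable. Of 378 features up to 100 bases long, 70 to 98 were above 0 in each of the 6 libraries. The sequence is shown to convey this length, with the D box CTGA in capitals, as the GENCODE M21 transcript set of build GRCm38 gives it.

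Snord34, chr7:45126601-45126670, strand -: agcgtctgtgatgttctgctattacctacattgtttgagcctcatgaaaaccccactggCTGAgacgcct

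The change over the same interval in the clamped kidneys was set against that of the sham kidneys with an interaction term in limma. Over all genes this difference passed at an adjusted p under 0.05 for 6800 genes (46.2%). The genes named here were picked by their sham change, which is part of the difference, so passing was favored in advance. Cyp4a14 fell in the sham kidneys, and in the clamped kidneys, where it was already low, its log2 change was -0.32 (adjusted p = 0.57, limma). The difference of the changes was 3.08 ± 0.64 with a limma adjusted p of 0.0010. Krt7 was at 126 ± 2.59 FPKM in clamped day 3 and 145 ± 8.70 FPKM in clamped week 3 kidneys, and the difference was 0.93 ± 0.15 with a limma adjusted p of 0.00012. Usp6nl was at 12.04 ± 0.40 and 8.99 ± 0.57 FPKM in the clamped kidneys, and the difference was -1.04 ± 0.14 with a limma adjusted p of 1.9e-05. For Fchsd1 the clamped kidneys also moved up, by 0.58 on the log2 scale, and the difference of -0.21 ± 0.18 did not pass (adjusted p = 0.36, limma). For Snord34, listed at 0 in sham week 3, the difference passed (adjusted p = 0.0023, limma), and its size is not given.

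**Figure D3:**
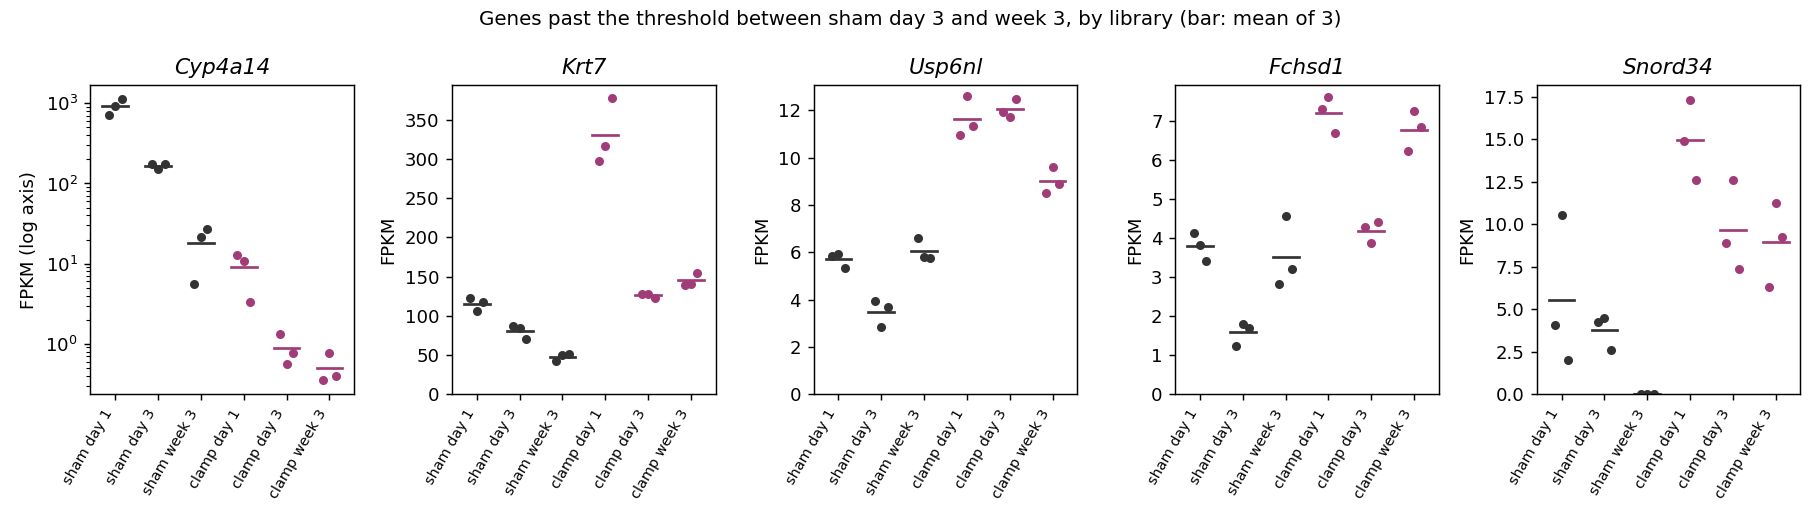
FPKM of the 5 genes in each library of the 6 groups, sham in black and clamped kidneys in purple, with the mean of 3 as a bar. The Cyp4a14 axis is logarithmic and the others start at 0. Cyp4a14 steps down from 923 to 167 to 17.9 FPKM over the sham days, and Snord34 is listed at 0 in sham week 3.

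The circadian clock genes showed how the second day 3 replicate stood apart. In the clock, BMAL1 (Arntl) with CLOCK or NPAS2 switches on genes that carry an E-box, among them the Per, Cry, Nr1d1 and Dbp genes and Ciart, a repressor of BMAL1 activity. REV-ERB proteins (Nr1d1, Nr1d2) and ROR proteins compete for the ROR element and set the level of Arntl, Npas2 and Nfil3. DBP, TEF and HLF activate, and NFIL3 represses, through the D-box.

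For a start site of 17 of the 20 clock genes in the table, RefSeq promoter sequence of build GRCm38.p6 was at hand, from 250 bases before the start to 50 after it. Both strands were searched for the E-box CACGTG, the D-box TTATGTAA or TTACGTAA, and the ROR element core TAGGTCA or TGGGTCA. No pair of these motifs overlapped. At least 1 start site held an E-box in 5 genes, a D-box in 1 gene and a ROR element core in 2 genes. Of all 32851 promoters in that RefSeq set, 7.15% held the E-box, 1.06% the D-box and 6.45% the ROR element core. These shares are per promoter, whereas the clock counts are per gene, and some clock genes had more than 1 start site. The E-box genes were Ciart, Per1, Tef, Cry1 and Bhlhe41. The windows of Dbp, Nr1d1 and Npas2 held none of these motifs, nor did the other window of Arntl. The 4 promoters shown were chosen because they hold a motif and belong to clock genes that were lowest (Ciart, Per3) or highest (Arntl, Nfil3) of the 6 libraries in the second day 3 replicate. They are therefore no evidence on how the motifs relate to these values. Capitals mark the motifs. Ciart holds 3 E-boxes, Per3 holds 2 D-boxes, and Arntl and Nfil3 hold 1 ROR element core each. In Nfil3 the core lies on the opposite strand and therefore reads TGACCTA.

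Ciart, chr3:95882179-95882478, strand -: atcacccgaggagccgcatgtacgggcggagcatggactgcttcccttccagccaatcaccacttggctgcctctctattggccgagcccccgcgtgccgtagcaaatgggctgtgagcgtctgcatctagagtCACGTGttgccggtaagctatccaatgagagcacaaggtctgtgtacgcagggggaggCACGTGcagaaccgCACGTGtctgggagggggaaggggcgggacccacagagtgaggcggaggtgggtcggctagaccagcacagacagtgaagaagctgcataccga
Per3, chr4:151044616-151044915, strand -: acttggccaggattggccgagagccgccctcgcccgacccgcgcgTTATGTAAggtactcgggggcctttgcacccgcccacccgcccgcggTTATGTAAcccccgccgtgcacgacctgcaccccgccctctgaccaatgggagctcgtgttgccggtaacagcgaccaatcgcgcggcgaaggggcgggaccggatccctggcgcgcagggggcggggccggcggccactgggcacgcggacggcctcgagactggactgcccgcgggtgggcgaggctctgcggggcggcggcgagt
Arntl, chr7:113207261-113207560, strand +: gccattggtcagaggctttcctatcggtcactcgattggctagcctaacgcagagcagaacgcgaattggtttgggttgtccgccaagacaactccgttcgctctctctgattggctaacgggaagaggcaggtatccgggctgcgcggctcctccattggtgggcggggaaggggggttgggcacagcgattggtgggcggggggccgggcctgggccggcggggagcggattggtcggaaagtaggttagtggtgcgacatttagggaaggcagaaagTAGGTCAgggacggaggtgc
Nfil3, chr13:52980990-52981289, strand -: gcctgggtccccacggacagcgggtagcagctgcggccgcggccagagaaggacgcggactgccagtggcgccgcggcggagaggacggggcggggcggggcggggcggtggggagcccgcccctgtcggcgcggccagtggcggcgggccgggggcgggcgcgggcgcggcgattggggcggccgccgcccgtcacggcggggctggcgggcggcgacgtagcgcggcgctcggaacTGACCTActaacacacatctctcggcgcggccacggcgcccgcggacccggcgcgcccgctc

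Dbp read 6.29 FPKM in the second day 3 replicate against 74.0 and 55.9 in the other 2 and 25.5 to 44.6 at week 3. Nr1d1 read 9.25 FPKM there against 32.5 and 32.3, and Ciart 1.02 against 6.79 and 6.18. Per3 read 3.31 FPKM against 8.03 and 8.05. In the opposite direction Arntl read 9.66 FPKM in that replicate against 1.31 and 2.18, Npas2 read 5.28 against 0.55 and 1.12, Nfil3 read 11.1 against 3.07 and 4.85, and Cry1 read 5.00 against 1.36 and 1.5. Among the other E-box genes Per1 (2.61 FPKM) and Tef (49.6 FPKM) were lowest there too, so genes with this motif lay on both sides. The second replicate was the farthest of the day 3 group from the group median in 17 of 20 clock genes, against 45.1% of all genes. It was the highest of the 6 libraries for 6 clock genes (23.8% of all genes) and the lowest for 8 (26.4% of all genes). The labels give no time of day for the samples, and its part in these values was not tested.

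**Figure D4:**
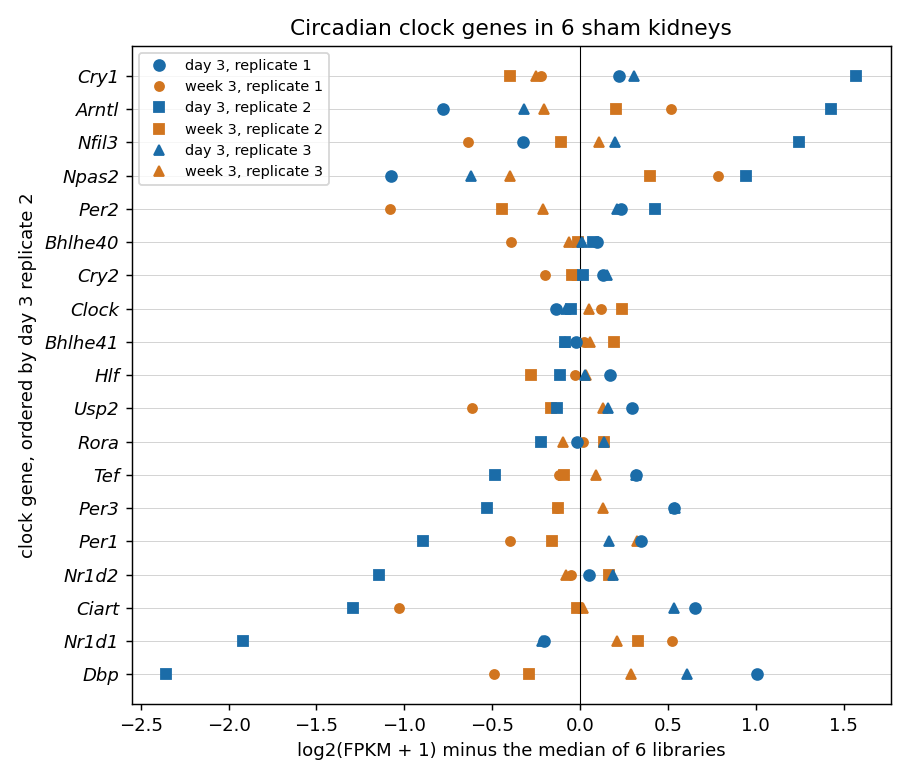
Deviation of log2(FPKM + 1) from the median of the 6 sham libraries for 19 of the 20 clock genes, 1 point per library, ordered by the second day 3 replicate (blue squares). That replicate lies far left for Dbp, Nr1d1 and Ciart and far right for Cry1, Arntl and Nfil3.

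No clock gene passed the threshold between the times in limma, and at an unadjusted p under 0.05 there were 2 higher and 3 lower. Without overlap 5 of 20 were lower and 3 higher at week 3, against 10.2% and 11.9% of all genes, and the median log2 change was -0.11. Without the second day 3 replicate 10 were lower and 5 higher, against 14.3% and 17.7% of all genes, the median was -0.22, and at an unadjusted p under 0.05 there were 7 lower and 3 higher. Per2 read 9.82, 11.4 and 9.66 FPKM at day 3 and 3.35, 5.78 and 6.96 FPKM at week 3 (adjusted p = 0.077, limma). Cry1 was at 0.73, 0.53 and 0.70 FPKM at week 3, under all its day 3 values. Nr1d1 was higher at week 3, at 54.7, 47.7 and 43.7 FPKM, with a log2 change of 1.13 ± 0.38 that was 0.57 without the second day 3 replicate. Cry2 and Bhlhe40 were lower and Clock and Bhlhe41 higher without overlap, with log2 changes of -0.19, -0.22, 0.23 and 0.16. Per1, Nr1d2, Rora, Tef, Hlf and Usp2 overlapped between times, with log2 changes from -0.33 for Usp2 to 0.31 for Nr1d2, as did Arntl, Npas2, Per3, Dbp, Nfil3 and Ciart.

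Gene groups of the nephron were described by their counts, since no member of the segment lists passed the threshold in limma. At an unadjusted p under 0.05 stood 2 genes of the convoluted proximal tubule list, both higher (8.58% of all genes). Lower at that p (6.94% of all genes) were 2 each of the principal cell, thick ascending limb and distal convoluted tubule lists. The straight proximal tubule list had 1 such lower gene and the intercalated cell list 0. Of 17 tested genes of the convoluted proximal tubule, 8 were higher at week 3 without overlap and none was lower, against 11.9% and 10.2% of all genes, and the median log2 change was 0.39. Without the second day 3 replicate, which was the lowest of the 6 libraries in 9 of the 17 genes, the median was 0.34 and 9 members were higher. Slc6a19, the neutral amino acid transporter of the brush border, read 68.3, 24.9 and 67.4 FPKM at day 3 and 133, 145 and 104 FPKM at week 3. Its log2 change was 1.36 ± 0.46 (adjusted p = 0.17, limma) and 0.89 without the second replicate. Slc4a4, the bicarbonate exit route of the same cells, read 108, 60.5 and 113 FPKM at day 3 and 146, 142 and 133 FPKM at week 3. Slc5a12 (log2 change 0.53, overlapping) and Slc7a7 (0.50, not overlapping) came next. Lrp2, which encodes the endocytic receptor megalin, read 157, 115 and 168 FPKM at day 3 and 198, 210 and 187 FPKM at week 3. Gatm, the creatine pathway enzyme, read 254, 313 and 294 FPKM at day 3 and 365, 466 and 356 FPKM at week 3. Slc5a2, the glucose cotransporter SGLT2, read 201, 226 and 198 FPKM at day 3 and 278, 255 and 286 FPKM at week 3.

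Principal cells of the collecting duct lay on the other side. All 9 tested members had a log2 change under 0, 6 of 9 were lower at week 3 without overlap (10.2% of all genes), and the median was -0.26. With the second day 3 replicate left out, 8 of 9 were lower (14.3% of all genes), and the median was -0.38. Aqp2, the vasopressin-regulated water channel, read 90.7, 89.2 and 76.1 FPKM at day 3 and 38.6, 72.7 and 44.7 FPKM at week 3, with a log2 change of -0.75 ± 0.27 (adjusted p = 0.19, limma). Scnn1a, the alpha subunit of the epithelial sodium channel, read 71.9, 61.4 and 64.5 FPKM at day 3 and 43.1, 54.5 and 49.6 FPKM at week 3 (adjusted p = 0.091, limma). Hsd11b2, which protects the mineralocorticoid receptor from glucocorticoids, read 126, 108 and 103 FPKM at day 3 and 81.4, 83.2 and 87.9 FPKM at week 3. Scaled to TPM, 3 of the 9 members were lower without overlap, against 5.68% of all genes. In whole tissue, fewer cells of a type and less RNA per cell cannot be told apart.

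In the thick ascending limb list 9 of 10 genes had a log2 change under 0, 3 were lower without overlap (10.2% of all genes) and the median was -0.26. Umod read 768, 932 and 672 FPKM at day 3 and 656, 552 and 627 FPKM at week 3. Lists of the straight proximal tubule (11 genes, median -0.05), the distal convoluted tubule (10 genes, median -0.09) and intercalated cells (12 genes, median -0.16) held 1, 2 and 2 genes that were lower without overlap and none that was higher, against 10.2% and 11.9% of all genes. The intercalated cell list held 6 lower and 1 higher without the second day 3 replicate, against 14.3% and 17.7% of all genes, with a median of -0.27.

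No endothelial gene separated the times without overlap, but 3 of 12 were higher at an unadjusted p under 0.05 (8.58% of all genes). Scaled to TPM, 6 of 12 were higher at that p (2353 of 14716 genes), and 1 was higher without overlap (19.3% of all genes). All 12 had a log2 change above 0, with a median of 0.39, but the values of both times overlapped for each. Kdr, the main VEGF receptor, read 6.18, 12.1 and 5.26 FPKM at day 3 and 10.2, 18.5 and 9.98 FPKM at week 3, so that the second replicate of each time was its highest. The summed list ran from 122 to 248 FPKM at day 3 and from 194 to 300 FPKM at week 3, and both the highest sums were of second replicates. Without the second day 3 replicate, 8 of the 12 genes were higher at week 3 without overlap, against 17.7% of all genes in that setting. For the podocyte list 2 of 12 were higher without overlap with all libraries (11.9% of all genes) and 8 of 12 without that replicate (17.7%). With all libraries 2 of 12 were higher at an unadjusted p under 0.05 (8.58% of all genes).

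Immune lists gave low levels. The 14 macrophage genes summed to 67.8 to 80.2 FPKM at day 3 and 65.3 to 78.1 FPKM at week 3. No member separated the times, and 3 were higher without the second day 3 replicate (17.7% of all genes). The neutrophil list summed to 12.6 to 15.95 FPKM at day 3 and 8.92 to 12.1 FPKM at week 3, and 3 of 9 tested genes were lower without overlap (10.2% of all genes). Its nearest sums were 12.58 and 12.14 FPKM, in the first replicates of day 3 and week 3. Their FPKM sums over all genes were 521173 and 488280, and relative to these the times overlap. The sums of B and plasma cell genes did not overlap, at 4.36 to 6.30 FPKM against 6.88 to 7.49 FPKM. Of 6 tested genes 1 was higher (11.9% of all genes), or 2 without the second day 3 replicate (17.7%). The sum of genes of T and natural killer cells was 8.44 FPKM in the second day 3 replicate, 18.01 and 20.5 FPKM in the other day 3 libraries and 8.62 to 13.2 FPKM at week 3. None of its 13 tested genes separated the times with all libraries (median -0.20), and 8 were lower without that replicate (median -0.31), against 14.3% of all genes. Interferon-stimulated genes (27 tested) had a median of 0.0019 and 1 gene lower without overlap (10.2% of all genes). Without that replicate 5 were lower and 1 higher (14.3% and 17.7% of all genes), with a median of -0.03.

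All 40 tested genes for cytosolic ribosomal proteins had a log2 change under 0, 34 were lower at week 3 without overlap (10.2% of all genes), and the median change was -0.42, but none passed at an adjusted p of 0.05 in limma. At an unadjusted p under 0.05 there were 34, all lower. Rpl38 read 402, 429 and 245 FPKM at day 3 and 194, 238 and 209 FPKM at week 3. Rpl11 read 491, 575 and 408 FPKM at day 3 and 308, 348 and 326 FPKM at week 3, a log2 change of -0.57 ± 0.13 (adjusted p = 0.077, limma). The second day 3 replicate was the highest of the 6 libraries in 33 of the 40. Without it the median was -0.31 with 34 lower (14.3% of all genes). Scaled to TPM the median was -0.33 with 27 lower (5.68% of all genes), and with quantile normalization it was -0.28 with 18 lower (11.2% of all genes). Many ribosomal protein genes have processed pseudogenes of near-identical sequence, so their FPKM depends on how the authors' counting placed shared fragments.

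Nuclear genes of the respiratory chain and ATP synthase went the same way in part. Of 34 tested, 17 were lower at week 3 without overlap and none was higher, against 10.2% and 11.9% of all genes, and the median log2 change was -0.23. Uqcrb, a subunit of complex III, read 613, 747 and 532 FPKM at day 3 and 376, 437 and 428 FPKM at week 3. Cox4i1, a subunit of cytochrome c oxidase, read 1016, 1104 and 868 FPKM at day 3 and 639, 760 and 782 FPKM at week 3. Without the second day 3 replicate the median was -0.15 with 17 lower (14.3% of all genes). With quantile normalization it was -0.05 with 12 lower and 4 higher (11.2% and 11.6% of all genes). The 2 members with the largest positive values overlapped between times. Ndufs1, the largest subunit of complex I, read 89.2, 79.9 and 99.9 FPKM at day 3 and 103, 97.9 and 90.5 FPKM at week 3. Sdha, the flavoprotein of complex II, had a log2 change of 0.09 ± 0.12. In the fatty acid oxidation list 7 of 22 genes were lower without overlap (10.2% of all genes), with a median of -0.0015. Scaled to TPM 3 were lower and 2 higher (5.68% and 19.3% of all genes). Quantile normalization gave 4 lower and 2 higher (11.2% and 11.6% of all genes).

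Transcript length moved with these changes. A gene's length was the median length of its RefSeq-matched GENCODE transcripts. In the 8370 genes with a length and a mean of at least 5 FPKM, grouped into 8 classes, the median log2 change ran from -0.20 in the shortest class (62 to 1190 bases) to 0.14 in the longest (5127 bases and more). Spearman's rho between length and log2 change was 0.49 across these genes, given as a description since the genes share 6 libraries. Genes lower at an unadjusted p under 0.05 had a median length of 1348 bases, those higher 4171 bases, and all tested genes 2716 bases. The median length was 843 bases in the ribosomal protein list and 1062 bases in the respiratory chain list. Relative to the mean of the 6 libraries, the shortest class stood at 0.25 in the second day 3 replicate, 0.09 in the first and -0.01 in the third, and at -0.14, -0.09 and -0.08 at week 3.

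With a smooth curve of log length subtracted from each library, an alternative added after seeing the data, 6.16% of all genes were lower and 15.2% higher without overlap. Then 22 ribosomal protein genes were lower, and their median was -0.21. In the respiratory chain list 10 genes were lower and 1 higher, the median moved from -0.23 to -0.06, and genes at an unadjusted p under 0.05 went from 14 to 3. The convoluted proximal tubule (9 higher) and principal cell (5 lower) counts moved by 1 gene each. The number of genes past the threshold was then 6. The part of transcript length in the changes was not tested further.

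**Figure D5:**
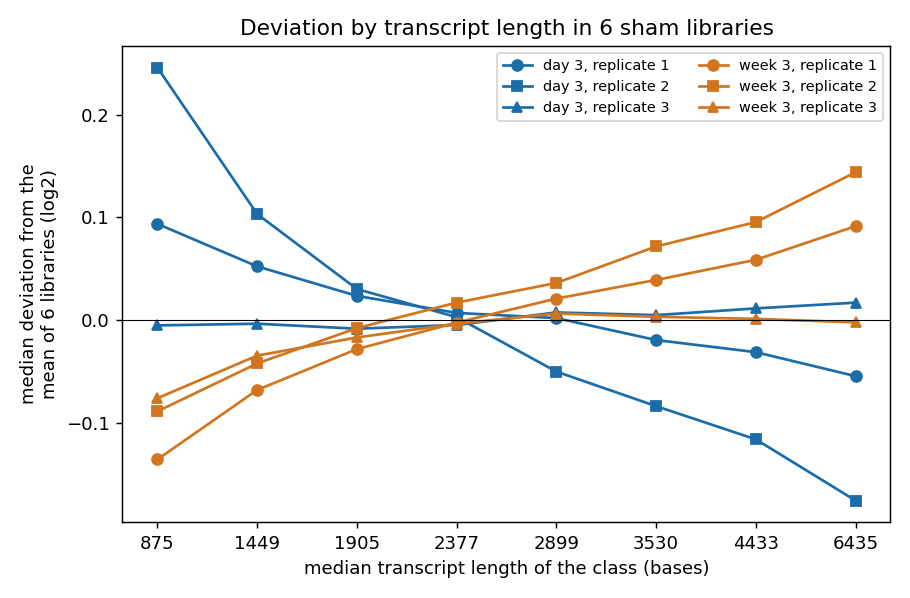
Median deviation of each library from the mean of the 6 sham libraries (log2) in 8 classes of transcript length with the median length of each class on the horizontal axis. The second day 3 replicate runs from 0.25 in the shortest class to -0.18 in the longest, and the week 3 replicates 1 and 2 run the opposite way.

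Hormone and metabolic axes gave values without calls. Of 19 tested genes of the renin, phosphate, vitamin D and growth factor axes 4 were higher and 2 lower without overlap, against 11.9% and 10.2% of all genes. In the fit without the second day 3 replicate, 5 were higher and 4 lower, against 17.7% and 14.3%. Igfbp3, which binds insulin-like growth factors, read 86.2, 88.1 and 55.6 FPKM at day 3 and 112, 172 and 106 FPKM at week 3 (adjusted p = 0.13, limma). Slc34a3, the second phosphate cotransporter, read 13.3, 22.1 and 16.2 FPKM at day 3 and 27.0, 33.5 and 30.6 FPKM at week 3. Agtr1a and Fgfr1 were the other 2 that were higher, and Agt, which encodes angiotensinogen, read 30.7, 41.7 and 23.0 FPKM at day 3 and 17.2, 22.4 and 21.0 FPKM at week 3. Ren1, which encodes renin, overlapped, with 176 FPKM in the second day 3 replicate and 82.5 to 113 FPKM in the other 5. The vitamin D hydroxylases Cyp24a1 (7.59 to 42.3 FPKM) and Cyp27b1 (0.60 to 5.11 FPKM) overlapped. The largest log2 change of the list, 0.99, was that of a vitamin D hydroxylase. Ace, Nr3c1, Nr3c2, Kl, Vdr, Pth1r, Slc20a2, Egf, Igf1 and Igfbp1 overlapped too, with log2 changes from -0.19 for Pth1r to 0.41 for Igfbp1.

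Among 15 tested targets of NRF2, the regulator of antioxidant genes, 5 were higher at week 3 without overlap and none was lower, against 11.9% and 10.2% of all genes. Leaving out the second day 3 replicate, 8 were higher (17.7% of all genes). Nqo1, the quinone reductase, read 32.8, 28.2 and 27.3 FPKM at day 3 and 40.02, 41.0 and 38.4 FPKM at week 3. Abcc4, an organic anion exporter, read 8.91, 5.13 and 6.49 FPKM at day 3 and 11.1, 14.9 and 9.94 FPKM at week 3 (adjusted p = 0.077, limma). Of 12 androgen-responsive genes Kap alone separated the times, and 2 were higher and 2 lower without that replicate (17.7% and 14.3% of all genes). Of the Y-linked genes Uty was higher without overlap (log2 change 0.26 ± 0.09), whereas Ddx3y, Kdm5d and Eif2s3y overlapped.

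Counts of the remaining lists are read against the 11.9% higher and 10.2% lower of all genes. Counts without the second day 3 replicate are read against 17.7% higher and 14.3% lower. Of 36 tested cell cycle genes 7 were higher (19.4%) and 1 lower (2.78%) without overlap, with a median log2 change of 0.08. Those higher included the replication helicase genes Mcm2, Mcm4, Mcm5 and Mcm7, of which Mcm7 read 8.35, 7.79 and 7.32 FPKM at day 3 and 9.29, 9.51 and 9.01 FPKM at week 3. Of 28 extracellular matrix genes 4 were higher (14.3%) and 1 lower. Without the second day 3 replicate 13 were higher (46.4%, against 17.7% of all genes) and 2 lower, and the median went from 0.09 to 0.26. Leaving out the third instead gave 4 higher and 3 lower (19.5% and 17.3% of all genes), and a median of -0.04. With the length trend removed 2 were higher and 0 lower (15.2% and 6.16% of all genes). Col4a2, a basement membrane collagen chain, read 25.2, 27.6 and 19.5 FPKM at day 3 and 27.9, 32.9 and 29.5 FPKM at week 3. Of 9 genes for osmolyte and urea handling 3 were higher, among them the taurine transporter gene Slc6a6, at 66.6, 55.4 and 69.6 FPKM at day 3 and 94.4, 87.5 and 71.8 FPKM at week 3. Of 25 immediate early genes, with a median of 0.24, 2 were higher (8%), or 5 (20%) without the second day 3 replicate. In the cytochrome P450 list of 18 genes the median was 0.37, 2 were higher and 2 lower, and 8 were higher and 3 lower without that replicate. Cyp2a5, a kidney P450 gene at 1051 FPKM in sham day 1, read 71.5, 56.7 and 60.2 FPKM at day 3 and 132, 73.6 and 122 FPKM at week 3. Fgg, a fibrinogen chain of the acute phase response, was at 328 FPKM in sham day 1, at 3.03, 3.79 and 3.03 FPKM at day 3 and at 6.93, 5.18 and 5.31 FPKM at week 3. In the tubular injury list Prom1, a marker of scattered repair cells, read 12.1, 12.2 and 11.4 FPKM at day 3 and 16.4, 25.4 and 15.96 FPKM at week 3 (adjusted p = 0.089, limma).

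Common reference genes stood near the background of all genes. Of 18 tested none passed in limma, 3 stood at an unadjusted p under 0.05 (16.7%, against 15.5% of all genes), and 3 did not overlap (against 22.1%). B2m (log2 change -0.39) and Ppia (-0.22) were lower and Polr2a (0.34) was higher without overlap. Gusb had a log2 change of 0.43 ± 0.15 and Rpl13a of -0.34 ± 0.14, with values that overlapped. The smallest changes were those of Ywhaz (-0.03 ± 0.09), Tbp (0.04 ± 0.10) and Hprt (-0.05 ± 0.12). Actb (-0.12), Gapdh (-0.12), Rplp0 (-0.09), Sdha (0.09), Pgk1 (0.09), Eef1a1 (-0.05), Tfrc (-0.21) and Rn18s (-0.10) overlapped between times.

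The spread between mice at a mean of 20 FPKM or more covered 3582 genes. Their pooled within-group SD of log2 values had a median of 0.12, with 0.048 at the 5th and 0.31 at the 95th percentile, and the median coefficient of variation was 9.25% at day 3 and 6.34% at week 3. The least variable gene was Tmco1, an endoplasmic reticulum calcium channel, with 25.7, 25.3 and 25.7 FPKM at day 3 and 24.7, 24.4 and 24.5 FPKM at week 3. Atxn10, Tmem59, Uqcrfs1, Gatad2a, Tbc1d22b, Sec24c and Ap2m1 followed, with a pooled SD from 0.015 to 0.021. Ap2m1, a clathrin adaptor subunit, was the one of these 8 with the largest log2 change, at -0.16 ± 0.09.

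The most variable gene was the pseudogene Atp6v0c-ps2, with 60.1, 114 and 2.56 FPKM at day 3 and 4.45, 10.3 and 11.7 FPKM at week 3, and a pooled SD of 1.95. Dbp followed at 1.33. Hbb-bt, a beta globin of red blood cells, read 20.9, 121 and 13.2 FPKM at day 3 and 38.8, 67.6 and 40.2 FPKM at week 3. Car3, a carbonic anhydrase abundant in fat and muscle, ranged from 8.60 to 78.6 FPKM, both at week 3, and the small nucleolar RNA gene Snord14e from 4.69 to 30.7 FPKM, also both at week 3. The vitamin D binding protein gene Gc, the glucuronosyltransferase gene Ugt1a6b and the serpin gene Serpina1d were highest in the second day 3 replicate, at 70.9, 69.7 and 104 FPKM.

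Other groups singled out that replicate too. Globin and other red cell transcripts summed to 2151 FPKM in it, against 644 and 523 FPKM in the other day 3 libraries and 1003 to 1519 FPKM at week 3. None of the 7 tested genes separated the times, and 5 were higher without that replicate (17.7% of all genes). Of 21 tested genes of the unfolded protein and ATF4 responses, 13 were highest in it, against 23.8% of all genes. No member of that list separated the times, and 3 were higher without that replicate (17.7% of all genes). Hspa5, the chaperone BiP of the endoplasmic reticulum, read 469 FPKM there, against 162 and 160 in the other day 3 libraries and 133 to 181 FPKM at week 3. Manf read 86.2 against 28.7 and 24.4 FPKM, and Sdf2l1 31.8 against 7.60 and 4.45 FPKM. Of 24 tested genes of cholesterol synthesis and uptake 13 were also highest there, among them Msmo1 at 33.4 against 20.9 and 15.6 FPKM. Hspa1a and Hspa1b, the inducible heat shock proteins, were instead highest in the third week 3 replicate, at 47.4 and 55.4 FPKM against at most 9.28 FPKM in the other 5 libraries.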

How the data were processed

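Mouse kidney RNA was sequenced in 18 libraries. The authors deposited 1 table of FPKM values. Per the submitters' processing notes HISAT2 2.0.4, Bowtie2 2.2.5, RSEM 1.2.12 and build mm9 were used, with their roles not given in the sources used here. Symbols stored as dates (27) were restored by Entrez ID. Changes are week 3 minus day 3 on log2(FPKM + 1), ± SE, a scale that understates changes of low genes. Group means of all 18 libraries were estimated with limma 3.58.1 (R 4.3.3, variance trend), and two-sided p-values were adjusted by Benjamini-Hochberg over 14716 genes. In data simulated for this comparison over the 14716 genes, 62% of genes changed 1.5-fold and 91% changed 2-fold were called. The 200 changed genes were drawn from those at about 5 FPKM or more, and the noise was normal and independent between libraries and genes. The rates therefore do not cover lower genes, an outlying library or a shared length trend, and may be too high for the real data. The members, the 42 gene lists and the rules were chosen with earlier results of these data known. Named genes were called genes with a mean of at least 5 FPKM and no overlap, the 20 most abundant, the 8 most and 8 least variable at 20 FPKM or more, whole reference, clock, hormone and sex-linked lists, and up to 4 members of other lists per direction. Some members of these lists are not reported here. Others, such as Lrp2, Slc5a2, Hspa1a and Hspa1b, were picked after their values were seen. Alternatives covered pseudocount, filter, scaling, libraries, weights and replicate block. The removal of the length trend and the threshold of 0.1 were chosen after seeing the data.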

Additional observations from a re-analysis of the deposited data

Results flagged for a closer look

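In 4 of the 5 genes that passed between sham day 3 and week 3, the change differed from that of the clamped kidneys over the same days, by the interaction term in limma. Of all 14716 genes 6800 (46.2%) passed this term. The 5 genes were picked by their sham change, which is part of the term, so passing was favored in advance. The difference, clamped minus sham on the log2 scale, was 3.08 ± 0.64 (SE) for Cyp4a14 (adjusted p = 0.0010, limma), 0.93 ± 0.15 for Krt7 (adjusted p = 0.00012) and -1.04 ± 0.14 for Usp6nl (adjusted p = 1.9e-05). For Snord34, listed at 0 in sham week 3, the adjusted p was 0.0023, and the size is not given. Fchsd1 did not pass (adjusted p = 0.36). The clamped libraries of Cyp4a14 were all at or under 1.32 FPKM at both times. Far samples were not looked for gene by gene, since each group held 3 libraries, and the table held no data outside these comparisons.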

How the results depend on the processing

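The count of 5 genes (2 higher, 3 lower) was 12 (5 and 7) with a pseudocount of 0.1 and 2 (0 and 2) with 5, 8 (5 lower) with median-of-ratios scaling, 11 (8 lower) with quantile normalization, 4 (1 higher) in the 6 libraries alone, and 2 (0 lower) in the 9 sham libraries. With array weights it was 1756 (882 and 874), and at a threshold of 0.1 it was 348 (173 and 175). Leaving out 1 of the 6 libraries gave 0 to 419 (0 to 188 higher, 0 to 231 lower). No pairing by replicate number was assumed. Same-numbered day 3 and week 3 libraries had correlations of deviations of -0.0562, 0.057 and -0.138, and other pairs -0.169 to 0.237. Deviations from a mean of 3 libraries depend on each other, so these values cannot settle whether the numbers pair the libraries. With the replicate block the count was 6 in 18 libraries and 1 (1 higher, 0 lower) in the 6. These counts were not always of the same genes. Of the 5, Snord34 alone was kept in the 6 libraries alone. In the 9 sham libraries, and with the block in the 6 libraries, 0 of the 5 were kept. Without a filter 3 of the 5 were kept (Cyp4a14, Krt7 and Usp6nl). The median within-group SD of 0.131 (day 3) and 0.109 (week 3) was 0.078 and 0.065 with a pseudocount of 5, and leaving out 1 library gave 0.084 to 0.130 for day 3 and 0.080 to 0.101 for week 3. Cyp4a14 and Krt7 stayed lower in all alternatives run, but the adjusted p of Cyp4a14 was 0.27 in the 6 libraries alone and 0.12 in the 9 sham libraries, and that of Krt7 0.27 and 0.14. TPM scaling moved the median change of all genes to 0.092. The interaction count (6800) and the share of the first 10 genes (18.4%) stayed within 1.5 times and 1 SD in all alternatives run. Causes were not tested, and depth is an estimate, so genes listed at 0 have no limit.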
